A study of Mus musculus with 2 samples.

Results

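Actn2, Tns4, Sema6a and Cpne8 were followed through single γδ T cells of the mouse lung. These are 4 of the 32285 genes in the deposited count matrices, and all 4 were found once by symbol in both libraries. They were chosen because their transcripts were low in the KO-labelled library against the WT library in γδ17-like cells, the clusters that carry the transcripts of interleukin-17 (IL-17) producers. Differences between the libraries are therefore a description of how the genes were picked. The WT cells of those clusters also enter the comparison of Vγ6 and Vγ4 cells, which is not independent of the choice either. In Vγ6 cells all 4 transcripts were present, at 402.5 CPM for Actn2, 53.0 CPM for Tns4, 80.3 CPM for Sema6a and 32.8 CPM for Cpne8. WT Vγ4 cells held Actn2 at 139.6 CPM and Cpne8 at 29.7 CPM, but 4 UMIs of Tns4 and 0 UMIs of Sema6a.

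The genes belong to separate families that meet at the cell surface and the actin skeleton. Actn2 encodes α-actinin 2, an actin cross-linker best known from the Z-discs of heart and skeletal muscle. Tns4 encodes tensin 4, a short tensin that binds the cytoplasmic tails of β integrins. Sema6a encodes a transmembrane semaphorin, a guidance molecule recognised by class A plexins. Cpne8 encodes a copine, a protein that binds membrane phospholipids when calcium rises. Mouse γδ T cells that make IL-17 leave the thymus already programmed, mostly carry a Vγ4 or Vγ6 receptor chain, and those with Vγ6 settle in barrier tissues such as the lung.

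The study asked whether Vγ1 cells stand in for the IL-17-producing Vγ4 and Vγ6 cells of mice without those chains. The WT library held Vγ1-negative γδ T cells sorted from lungs of C57BL/6NCrl mice, and the KO-labelled library held Vγ1-positive γδ T cells from lungs of the strain B6.Cg-Tcrgtm1lku(B6.Vg4-/-Vg6-/-). Mice of both groups were uninfected and 5 to 7 weeks old, and both sexes were used. With 1 library per group there was no replicate and no test was possible, so every interval covers counting error only, and sort, genotype, strain and library cannot be told apart.

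Transcripts were counted as unique molecular identifiers (UMIs), and a level is given as CPM, the UMIs of a gene per 1000000 UMIs summed over the cells of a group. The filter stated in the study's methods left 2505 WT cells (median 3288 UMIs) and 6634 KO-labelled cells (median 3521 UMIs), more than the study counts in either library, and 23 cell barcodes occurred in both. Cells were grouped by the T cell receptor variable genes they showed. Vγ6-only cells were the 520 WT cells with UMIs of Tcrg-V6 and of no other of the 6 Tcrg variable genes in the files, and Vγ4-only cells the 410 WT cells with Tcrg-V4 alone. KO Vγ1 cells were the 2880 KO-labelled cells with a Tcrg-V1 UMI, and KO dv6 cells the 1499 with a UMI of any of the 4 Trav15-dv6 genes, variable genes used by δ chains of innate-like Vγ1 cells. The last 2 groups shared 797 cells.

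The receptor genes were examined first, since they check the labels. Tcrg-V6 had 1908 UMIs in Vγ6-only cells and 0 UMIs in KO Vγ1 and in KO dv6 cells. Tcrg-V4, which is targeted in the KO strain, still had 837 UMIs in KO Vγ1 cells (61.8 CPM, in 21.2% of cells). The study reports no expression of it in the KO Vγ1 cells of its γδ17 clusters. This gene thus went against the label, and the library is called KO-labelled here. Whether these UMIs come from an intact Vγ4 chain was not tested. Trdv4, the δ variable gene of the usual partner of Vγ6, was detected in 93.3% of Vγ6-only and 6.10% of Vγ4-only cells. Cd3e, a chain of the T cell receptor complex, was detected in 494 of 520 Vγ6-only and 366 of 410 Vγ4-only cells, in 95.4% of KO Vγ1 and in 94.3% of KO dv6 cells, while 10 of the 410 Vγ4-only cells lay in myeloid-like or B-like clusters.

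Promoter sequences are shown for Actn2 and Cpne8, the 2 genes found in both WT groups and low in the KO-labelled library. Each run covers 250 bases before to 50 bases after the annotated start, on the strand of the gene, from RefSeq on GRCm38.p6. Actn2 lies at chr13:12340683-12340982 (minus strand) and Cpne8 at chr15:90679339-90679638 (minus strand). Capitals mark every match to a short motif on either strand.
Actn2: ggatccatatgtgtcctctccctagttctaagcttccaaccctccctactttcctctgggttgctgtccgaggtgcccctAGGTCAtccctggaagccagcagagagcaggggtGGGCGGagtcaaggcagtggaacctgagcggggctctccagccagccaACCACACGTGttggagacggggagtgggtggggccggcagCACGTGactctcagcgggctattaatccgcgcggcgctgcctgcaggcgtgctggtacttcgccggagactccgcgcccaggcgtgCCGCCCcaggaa
Cpne8: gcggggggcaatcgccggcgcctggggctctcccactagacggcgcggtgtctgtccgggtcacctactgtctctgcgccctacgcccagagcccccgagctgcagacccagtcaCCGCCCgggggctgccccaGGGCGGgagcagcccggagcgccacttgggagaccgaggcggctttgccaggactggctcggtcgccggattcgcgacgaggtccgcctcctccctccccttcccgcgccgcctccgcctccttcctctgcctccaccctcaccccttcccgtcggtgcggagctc

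The motifs searched were the nuclear receptor element (AGGTCA), AP-1 (TGANTCA), RUNX (TGTGGT), the E-box (CACGTG), SOX (AACAAT), the MAF element (TGCTGA), the GC box of SP and KLF factors (GGGCGG), a MEF2-like AT box (TATTTTTA) and the TATA box (TATAAA), each on both strands. The Actn2 window held 2 E-boxes, 2 GC boxes, 1 nuclear receptor element and 1 RUNX match, and the RUNX match overlapped the first E-box. Among all 32851 promoter windows of the same length, 7.15% held the E-box, 35.7% the GC box, 16.3% the nuclear receptor element and 16.8% the RUNX letters. The Cpne8 window held 2 GC boxes and none of the other letters. Both windows were richer in GC than usual, with 64.7% for Actn2 and 73.7% for Cpne8 against a median of 52.7%. A match is a description of letters in the window and says nothing of binding.

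Actn2 (ENSMUSG00000052374, chromosome 13, 12269426 to 12340760) had the widest distribution of the 4. Its level was 402.5 CPM in Vγ6-only cells (797 UMIs, 95% interval 375.0 to 431.5) and 139.6 CPM in Vγ4-only cells (221 UMIs, 121.8 to 159.3). KO Vγ1 cells had 14.3 CPM (194 UMIs, 12.4 to 16.5) and KO dv6 cells 10.7 CPM (75 UMIs, 8.38 to 13.4). The intervals of both WT groups lay apart from each other and above those of the KO-labelled groups, which overlapped. A UMI was found in 65.2% of Vγ6-only, 30.5% of Vγ4-only, 5.52% of KO Vγ1 and 4.40% of KO dv6 cells. With each cell thinned to 2000 UMIs, so that depth is equal, these shares were 48.9%, 22.3%, 2.83% and 1.85%. Positive Vγ6-only cells held 2.35 UMIs on average and up to 10, against 1.22 and up to 5 in positive KO Vγ1 cells.

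Tns4 (ENSMUSG00000017607, chromosome 11, 99065678 to 99089306) was high in Vγ6-only cells and low in the other 3 groups. Vγ6-only cells had 53.0 CPM (105 UMIs, 43.4 to 64.2), and Vγ4-only cells 2.53 CPM (4 UMIs, 0.688 to 6.47). KO Vγ1 cells had 0.739 CPM (10 UMIs, 0.354 to 1.36) and KO dv6 cells 0.710 CPM (5 UMIs, 0.231 to 1.66). The Vγ6-only interval stood apart and those of the other 3 groups overlapped. At equal depth 11.0% of Vγ6-only cells had a UMI (8.33 to 14.1), against 0.520% of Vγ4-only cells, 0.0727% of KO Vγ1 cells and 0 of 1407 KO dv6 cells, which allows a share of up to 0.213%.

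Sema6a (ENSMUSG00000019647) was the most uneven of the 4 between the groups. Vγ6-only cells had 80.3 CPM (159 UMIs, 68.3 to 93.8) and Vγ4-only cells 0 UMIs, which allows up to 1.89 CPM. KO Vγ1 cells had 3 UMIs or 0.222 CPM (0.0457 to 0.648), and KO dv6 cells 2 UMIs or 0.284 CPM (0.0344 to 1.03). The other 3 groups could not be ordered among themselves. UMIs of Sema6a were found in 18.3% of Vγ6-only cells, and in 12.0% at equal depth (9.25 to 15.3). None of the 410 Vγ4-only cells had one, which allows a share of up to 0.732%.

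Cpne8 (ENSMUSG00000052560, chromosome 15, 90487482 to 90679432) did not separate the WT groups. Its level was 32.8 CPM in Vγ6-only cells (65 UMIs, 25.3 to 41.8) and 29.7 CPM in Vγ4-only cells (47 UMIs, 21.8 to 39.5). KO Vγ1 cells had 0.886 CPM (12 UMIs, 0.458 to 1.55) and KO dv6 cells 1.14 CPM (8 UMIs, 0.490 to 2.24). Both WT intervals overlapped, as did both KO-labelled ones, with a gap between them. At equal depth 6.21% of Vγ6-only and 6.23% of Vγ4-only cells had a UMI, against 0.182% of KO Vγ1 and 0.284% of KO dv6 cells.

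**Figure D1:**
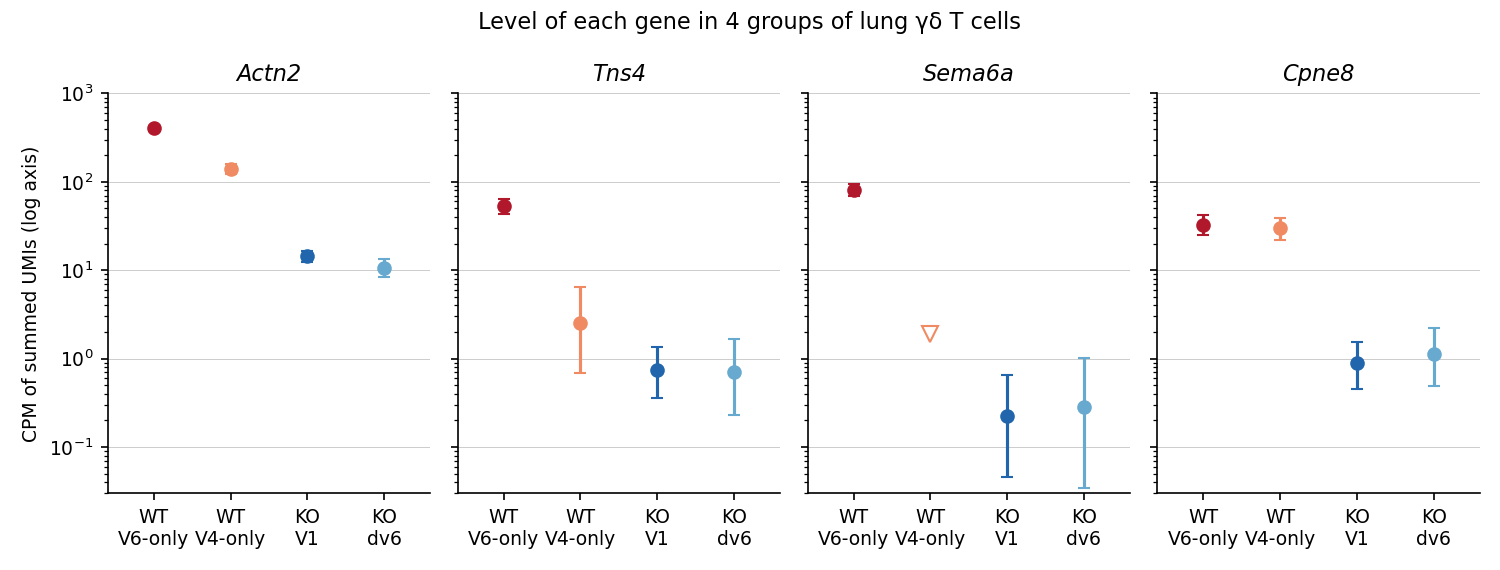
Level of Actn2, Tns4, Sema6a and Cpne8 in WT Vγ6-only (V6-only), WT Vγ4-only (V4-only), KO-labelled Vγ1 (V1) and KO-labelled dv6 cells, as CPM of the summed UMIs on a log axis. Points are 1 library each, bars are exact 95% Poisson intervals, and the open triangle is the limit that 0 UMIs allows (Sema6a in Vγ4-only cells, 1.89 CPM). All 4 genes were highest in Vγ6-only cells, with Cpne8 at nearly the same level in Vγ4-only cells.

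Free RNA can give UMIs in cells that do not express a gene, so the shares were also taken in other cells. In the 93 WT cells of the myeloid-like and B-like clusters (median 3467 UMIs) Actn2 had 0 UMIs, which allows up to 3.23% of cells, Tns4 was found in 3 cells (3.23%) and Sema6a in 1 cell (1.08%). The Tns4 share of Vγ4-only cells, 0.732% without thinning, was below that, but the 945 WT cells of the unnamed clusters held 1 Tns4 UMI in all (0.106% of cells). Whether the 4 UMIs of Vγ4-only cells are background was not tested. Cpne8 had 7 UMIs in 4 of these 93 cells (4.30%, 1.18 to 10.6) and 5 UMIs in 3 of the 59 KO-labelled ones (5.08%). This level was not one that all cells shared, since Cpne8 was found in 0.118% of the 5099 KO-labelled and 0.741% of the 945 WT cells of the unnamed clusters, and it is not used as a background. The Cpne8 shares without thinning were 0.312% in KO Vγ1 cells, 0.467% in KO dv6 cells and 7.07% (4.79 to 10.0) in Vγ4-only cells. Of the receptor groups, 10 of the 410 Vγ4-only and 2 of the 520 Vγ6-only cells lay in the myeloid-like or B-like clusters. Summed over 10 myeloid markers the level was 325.2 CPM in Vγ6-only, 715.0 CPM in Vγ4-only, 238.6 CPM in KO Vγ1 and 252.8 CPM in KO dv6 cells, and its part in the Cpne8 level of Vγ4-only cells was not tested.

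Since Actn2 is a muscle gene, 10 heart and smooth muscle markers were counted. Vγ6-only cells held 1 UMI of them, from Des, and Vγ4-only cells held 0, against 797 and 221 UMIs of Actn2. KO Vγ1 cells held 9 UMIs of these markers and KO dv6 cells 2. Summed over 7 stress genes, the level was 4841 CPM in Vγ6-only, 5040 CPM in Vγ4-only, 3385 CPM in KO Vγ1 and 3378 CPM in KO dv6 cells, and the part of handling in the difference between libraries was not tested.

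Within the WT library, the ratio of Vγ6-only to Vγ4-only cells placed the genes far apart. Tns4 was 21.0-fold higher (7.96 to 78.5) and ranked 16th from the top of 8098 genes with at least 30 UMIs. Sema6a was at least 42.4-fold higher and ranked 5th, computed against a floor of 3 UMIs in Vγ4-only cells. Actn2 was 2.88-fold higher (2.48 to 3.36), at rank 185. Cpne8 was 1.11-fold higher (0.748 to 1.65), at rank 2850, with an interval that included no difference. A 4-fold higher level was reached by 2 of the 4 genes and by 1.3% of all genes tested, and a 4-fold lower level by 1.4% of all genes. The γδ17-like clusters that chose the genes held 96.0% of Vγ6-only and 53.7% of Vγ4-only cells. The same WT counts thus entered the choice, and these ratios and ranks are a description. Among cells that showed Xist but no Y-linked gene, 185 Vγ6-only and 126 Vγ4-only, the log2 ratio of Actn2 was 2.17, past 4-fold, and among those that showed Y-linked genes but no Xist it was 1.30.

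**Figure D2:**
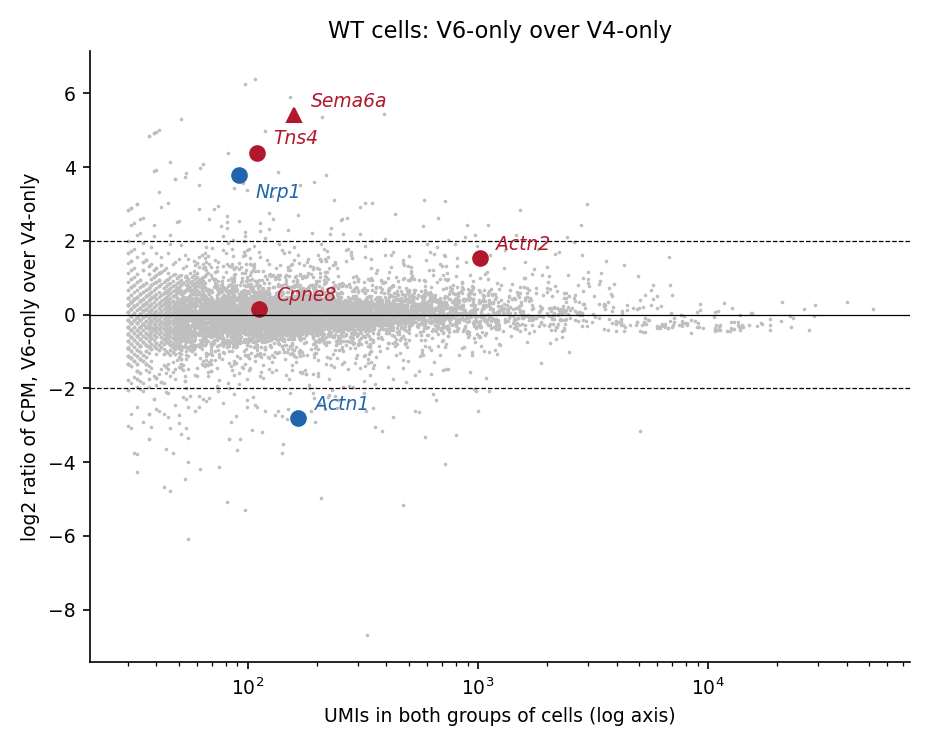
Log2 ratio of CPM, WT Vγ6-only over Vγ4-only cells, against the UMIs of each gene in both groups (log axis), for 8098 genes in grey. The 4 genes are in red and Actn1 and Nrp1 in blue, a triangle marks a lower bound, and dashed lines mark 4-fold; Sema6a and Tns4 stood above 4-fold, Actn2 below it and Cpne8 near 0.

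Vγ4 cells are a mixture of IL-17 producers and other cells, and 96.0% of Vγ6-only but 53.7% of Vγ4-only cells lay in γδ17-like clusters. Cells were therefore also split by a UMI of any of 5 IL-17 panel genes, the cytokines Il17a and Il17f, the receptor genes Il23r and Il1r1 and the kinase gene Blk. Such a UMI was present in 463 of 520 Vγ6-only, 208 of 410 Vγ4-only, 666 of 2880 KO Vγ1 and 265 of 1499 KO dv6 cells.

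Actn2 and Cpne8 were higher with a panel UMI inside the Vγ4-only group. The share of all genes past 4-fold was not taken for this split. It is therefore not shown whether these ratios exceed the general difference between the γδ17-like and other cells mixed in this group. Actn2 was at 272.2 CPM in the 208 Vγ4-only cells with a panel UMI (235.7 to 312.6) and at 24.8 CPM in the 202 without (15.3 to 37.8), an 11.0-fold ratio (7.00 to 18.1). Cpne8 was at 55.8 CPM (40.0 to 75.7) and 7.07 CPM (2.60 to 15.4), a 7.89-fold ratio (3.33 to 22.7). All 4 Tns4 UMIs of the Vγ4-only group came from panel cells. Sema6a had 0 UMIs on either side, and 0 in 208 panel cells allows up to 4.08 CPM.

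Among panel cells alone, Vγ6-only cells had 422.5 CPM of Actn2, 1.55-fold above the Vγ4-only level (1.33 to 1.82). For Tns4 the ratio was 10.1 (3.81 to 37.6), and for Sema6a it was at least 21.3. The order of Cpne8 turned, with 34.3 CPM in Vγ6-only and 55.8 CPM in Vγ4-only panel cells, a ratio of 0.615 (0.408 to 0.935). In this comparison 1.12% of 7218 genes were 4-fold higher and 0.485% 4-fold lower. Cpne8 ranked 6781st from the top and Sema6a 6th. Il17a itself differed little between these cells, at 434.7 CPM in Vγ6-only and 394.6 CPM in Vγ4-only panel cells (ratio 1.10, 0.962 to 1.26).

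The KO-labelled panel cells were below the WT levels, which is a description of how the genes were picked. Il17a was lower in them as well, at 116.2 CPM in KO Vγ1 panel cells. It was at 394.6 CPM in Vγ4-only and 434.7 CPM in Vγ6-only panel cells. KO Vγ1 cells with a panel UMI had 24.4 CPM of Actn2 (83 UMIs, 19.5 to 30.3), close to the Vγ4-only cells without one. Their Tns4 and Cpne8 were both at 2.65 CPM (9 UMIs each) and Sema6a at 1 UMI in 666 cells. Panel cells were above the other KO Vγ1 cells for Actn2 (2.23-fold, 1.66 to 2.99), for Tns4 (9 UMIs against 1, ratio 26.9, 3.72 to 1177) and for Cpne8 (9 UMIs against 3, ratio 8.95, 2.23 to 51.4). Actn2 and Cpne8 were thus higher in panel cells here too, while WT Vγ4-only panel cells were above KO Vγ1 panel cells 11.1-fold for Actn2 (8.58 to 14.6) and 21.1-fold for Cpne8 (10.1 to 49.3).

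**Figure D3:**
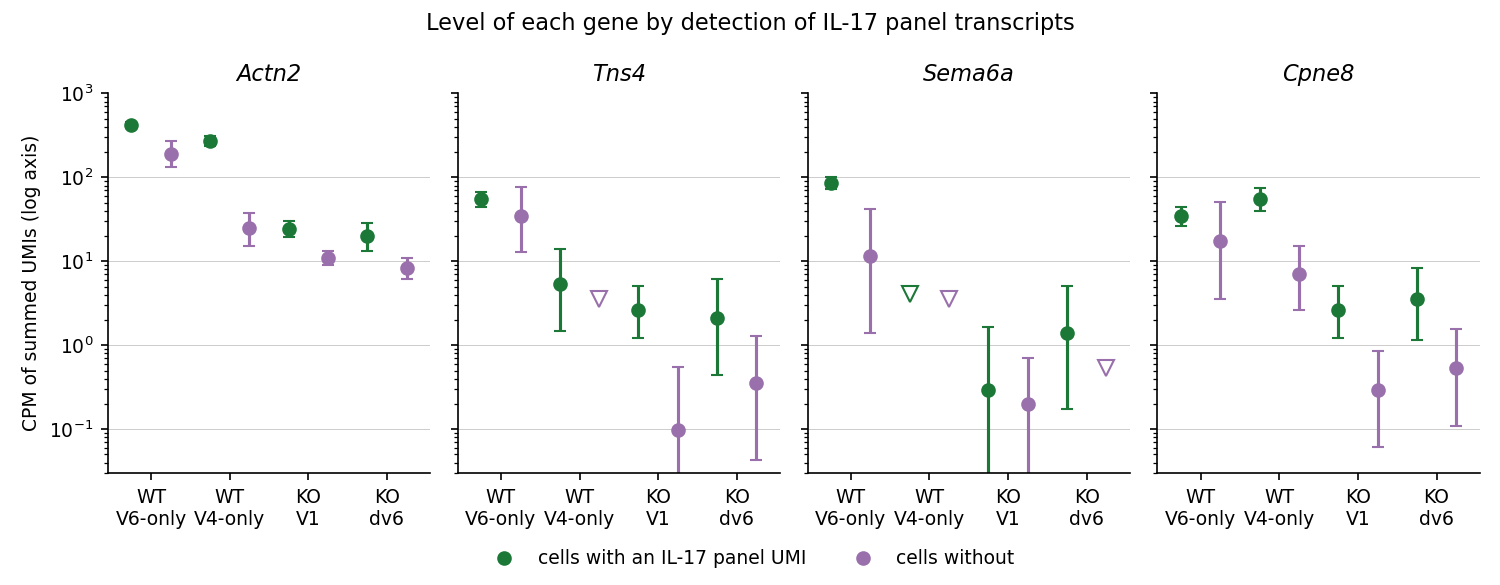
Level of each gene (CPM of summed UMIs, log axis) in the 4 groups, split into cells with (green) and without (purple) a UMI of Il17a, Il17f, Il23r, Il1r1 or Blk, where KO stands for the KO-labelled library. Points are 1 library each, bars are exact 95% Poisson intervals (cut at the lower edge of the axis), and open triangles are limits of 0 UMIs. Actn2 and Cpne8 separated Vγ4-only cells with and without panel UMIs, while Sema6a had 0 UMIs in both.

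The comparison with KO-labelled cells is the one the genes were chosen on, and is given for size only. Vγ6-only cells were 28.1-fold above KO Vγ1 cells for Actn2 (24.0 to 33.0), 71.8-fold for Tns4 (37.5 to 154.1), 362-fold for Sema6a (121.8 to 1776) and 37.0-fold for Cpne8 (19.8 to 75.3). All 4 ranked between 2nd and 16th of 10717 genes, where 1.75% were 4-fold higher and 3.24% 4-fold lower. Against KO dv6 cells the ratios were 37.8, 74.7, 283 and 28.9 in the same order, and 2.15% of all genes were 4-fold higher and 3.11% 4-fold lower. Vγ4-only cells were above KO Vγ1 cells 9.74-fold for Actn2 (7.99 to 11.9) and 33.5-fold for Cpne8 (17.5 to 69.4), ranks 17 and 4 of 10693, with 0.645% of genes 4-fold higher. These comparisons share cell groups and are not independent of each other.

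The values that chose the genes were those of the γδ17-like clusters, with 1467 WT and 1476 KO-labelled cells in the clustering used here. The log2 ratio of KO-labelled over WT was -5.92 for Sema6a, -4.51 for Tns4, -4.28 for Actn2 and -4.29 for Cpne8. Among 5239 genes found in at least 10% of these cells of either library, only Bcl2a1a (-6.24), an anti-apoptotic BCL2 family gene that is not a member, was lower than Sema6a. Tns4 lay just inside the detection limit with 10.3% of WT cells and Cpne8 just outside it with 9.41%. The next genes above Actn2 were Ftl1-ps1 at -4.15 and Clnk at -4.03.

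Inside the KO-labelled library Actn2 was lower in KO Vγ1 cells that also showed a dv6 gene. It was at 10.7 CPM in the 797 cells with a dv6 UMI and at 16.1 CPM in the 2083 without, a ratio of 0.663 (0.466 to 0.929). Tns4 (4 and 6 UMIs) and Cpne8 (6 and 6 UMIs) had ratios of 1.42 (0.295 to 6.00) and 2.13 (0.570 to 7.98), intervals that include no difference. Sema6a had 1 and 2 UMIs, at or under the floor of 3 UMIs, so no ratio is given.

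The place of the WT transcripts was also read without the rule of a single Vγ gene. Cells with Tcrg-V6, alone or with another Tcrg gene, were 20.8% and 9.34% of the WT cells and held 57.1% and 31.5% of all 184 Tns4 UMIs. For Sema6a they held 54.8% and 24.1% of 290 UMIs, for Actn2 42.0% and 22.3% of 1899, and for Cpne8 32.2% and 20.3% of 202. Of the WT cells with neither Tcrg-V6 nor Tcrg-V4, the 116 with a Trdv4 UMI held 33 Sema6a UMIs, more than the 28 of the other 1170 cells. Sema6a was at 70.5 CPM (48.6 to 99.1) in all 142 WT cells with Trdv4 and no Tcrg-V6 UMI, and Tns4 at 21.4 CPM (10.3 to 39.3). Both genes were thus found in cells with the partner δ gene and no Vγ6 UMI, at a lower level for Tns4 than in Vγ6-only cells.

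Clustering without these genes, their families, markers, receptor and sex-linked genes gave 10 clusters, of which 1, 6 and 8 were γδ17-like. Cluster 6 held 602 WT and 22 KO-labelled cells, 393 of them Vγ6-only, and its WT cells had the highest Actn2 (465.5 CPM), Tns4 (64.9 CPM) and Cpne8 (41.1 CPM). The 22 KO-labelled cells of cluster 6 had Actn2 at 81.7 CPM (8 UMIs, 35.3 to 161.0) and 0 UMIs of Tns4 and Cpne8. Their Sema6a was at 40.85 CPM (4 UMIs in 2 cells, 11.1 to 104.6). This interval overlapped that of the WT cells of cluster 6 (75.8 to 100.3). Cluster 1, with 725 WT and 1337 KO-labelled cells, had Actn2 at 291.3 CPM and Cpne8 at 32.9 CPM in WT but Tns4 at 10.8 CPM and Sema6a at 11.2 CPM. Its KO-labelled cells had 18.2 CPM of Actn2, 1.63 of Tns4, 0.326 of Sema6a and 1.95 of Cpne8. In the 5 clusters that took no name Actn2 was between 7.43 and 17.4 CPM in either library.

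Sema6a differed from the other 3 in its highest cluster. Cluster 8, with 140 WT and 117 KO-labelled cells, had 56 Sema6a UMIs in 24 WT cells (293.8 CPM, 221.9 to 381.5) and 0 in its KO-labelled cells, against 87.4 CPM in the WT cells of cluster 6. Cluster 8 took its name from 7 γδ17 markers, among them Il23r and Maf but neither Il17a nor Il17f. Its WT cells had Il17a at 42.0 CPM, against 428.0 CPM in cluster 1 and 422.7 CPM in cluster 6. The cells of cluster 8 were shallow, with a median of 1208 UMIs in WT and 1281 in KO-labelled cells. They were led by long genes, whose top 10 had a median span of 352.4 kb. Sema6a spans 133.3 kb, Actn2 71.3 kb, Tns4 23.6 kb and Cpne8 192.0 kb, and whether reads in introns were counted is not given in the sources used here. Of the Vγ6-only cells 16 were in cluster 8, and they held 15 Sema6a UMIs and 0 of Actn2. Without them Sema6a in Vγ6-only cells was at 73.6 CPM.

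**Figure D4:**
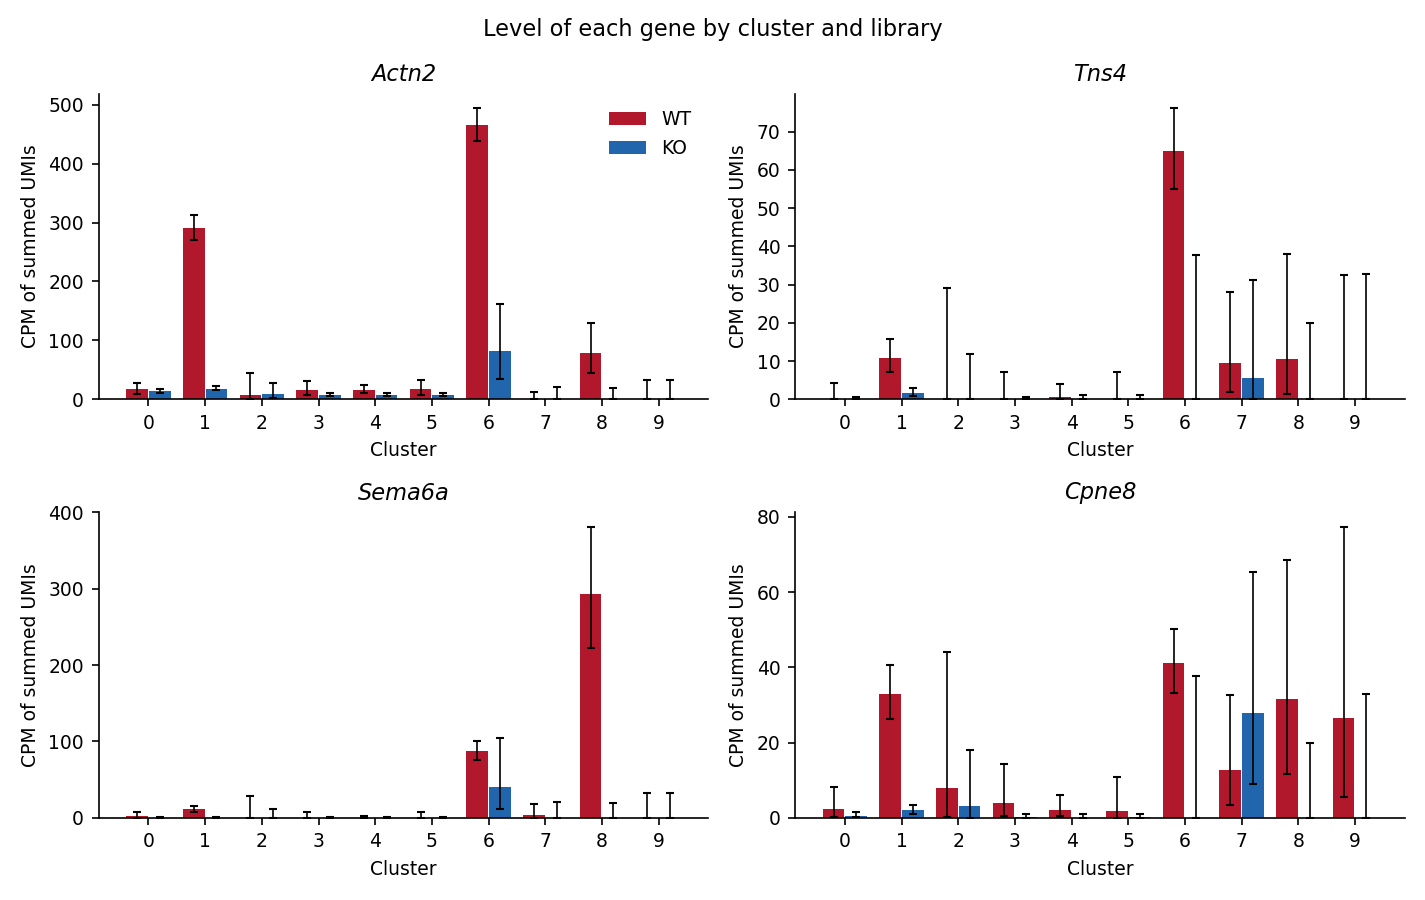
Level of each gene (CPM of summed UMIs, bars from 0) in the 10 clusters, for the WT library (red) and the KO-labelled library (blue, KO), with exact 95% Poisson intervals. Clusters 1, 6 and 8 are γδ17-like, 7 myeloid-like and 9 B-like, and the others have no name. Actn2 and Tns4 peaked in WT cells of cluster 6 and Sema6a in WT cells of cluster 8, and the wide bars belong to small clusters.

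Co-detection with Il17a, the gene of the cytokine IL-17A, was examined in Vγ6-only cells at 2000 UMIs per cell, where 150 of 483 cells (31.1%) had an Il17a UMI. Sema6a stood out. An Il17a UMI was found in 29 of the 58 Sema6a-positive cells (50%, 36.6 to 63.4) and in 121 of the 425 others (28.5%, 24.2 to 33.0), a ratio of 1.76. That ratio ranked 19th of 5018 genes found in at least 5% of these cells, and 2.55% of the genes reached 1.5. The median ratio over all genes was 0.987. The Sema6a ratio was 1.55 without thinning and 1.67 at 1000 UMIs per cell.

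For the other 3 genes the shares of both kinds of cell overlapped. Il17a was found in 28.8% of Actn2-positive and 33.2% of Actn2-negative cells, with overlapping intervals (23.1 to 35.1 and 27.4 to 39.4). For Tns4 the shares were 20.8% (10.8 to 34.1) and 32.3% (27.9 to 37.0), and for Cpne8 40.0% (22.7 to 59.4) and 30.5% (26.2 to 34.9). The ratios of 0.868, 0.642 and 1.31 ranked 3539th, 4714th and 456th. For Actn2 the order turned with the depth, at 1.28 without thinning and 1.16 at 1000 UMIs per cell. For Cpne8 the ratio was 1.55 without thinning, near that of Sema6a. Its shares were then 54.55% (40.55 to 68.03) and 35.27% (30.92 to 39.8), with intervals apart. At 1000 UMIs per cell the Cpne8 ratio fell to 0.562, where 17 cells had the gene. Receptor genes of the panel gave ratios of 1.47 for Il23r and 1.33 for Il1r1.

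The genes with the highest ratios were Junb (2.53), Ifrd1 (2.41), Nr4a1 (1.99), Desi1 (1.97) and Cnbp (1.90). Junb and Nr4a1 are immediate-early genes, which respond within minutes to receptor signals or handling. The Sema6a ratio was also read in cells of either sex. In Vγ6-only cells with Y-linked and no Xist transcripts, which come from males, Il17a was found in 60.0% of 15 Sema6a-positive and 22.1% of 104 other cells. In cells with Xist and no Y-linked transcripts the shares were 40.7% of 27 and 36.1% of 147, with overlapping intervals (22.4 to 61.2 and 28.3 to 44.4). Without thinning the shares were 70.8% of 24 against 27.7% of 101 in the first set and 53.7% of 41 against 42.4% of 144 in the second. At 1000 UMIs per cell the ratios were alike, 1.63 and 1.64, from 8 and 22 Sema6a-positive cells. The number of mice behind either set is not given, so animals cannot be told apart from sex.

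In levels, Il17a-positive Vγ6-only cells had 111.7 CPM of Sema6a and the others 60.3 CPM (ratio 1.85, 1.34 to 2.57). For Cpne8 the levels were 45.5 and 24.8 CPM (1.83, 1.09 to 3.09), for Actn2 441.7 and 377.6 CPM (1.17, 1.01 to 1.35) and for Tns4 42.9 and 59.5 CPM (0.721, 0.462 to 1.10). Cells with an Il17a UMI were also deeper, with a median of 3720 UMIs against 3482.

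In Vγ4-only cells, a mixture of γδ17-like and other cells, Il17a was found more often beside Actn2 and Cpne8. The ratio over all genes was taken in Vγ6-only cells only, so these values have no background beside them. At equal depth Il17a was found in 23 of 86 Actn2-positive cells (26.7%, 17.8 to 37.4) and 39 of 299 others (13.0%, 9.44 to 17.4). For Cpne8 the counts were 9 of 24 (37.5%, 18.8 to 59.4) and 53 of 361 (14.7%, 11.2 to 18.8), with intervals that nearly met. Within the Vγ4-only cells that had a panel UMI, which Il17a itself can supply, the Il17a shares were 29.1% and 33.1% for Actn2 and 40.9% and 30.3% for Cpne8, with overlapping intervals. At 1000 UMIs per cell the Actn2 ratio was 2.05, as at 2000, and that of Cpne8 fell from 2.55 to 1.11, with 9 positive cells. KO-labelled cells gave 4 cells with both Actn2 and Il17a among 78 Actn2-positive KO Vγ1 cells (5.13%, 1.41 to 12.6), against 2.13% of the others (1.62 to 2.75). No KO-labelled cell with Il17a, of 151, had a Sema6a UMI, which allows up to 1.99%.

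**Figure D5:**
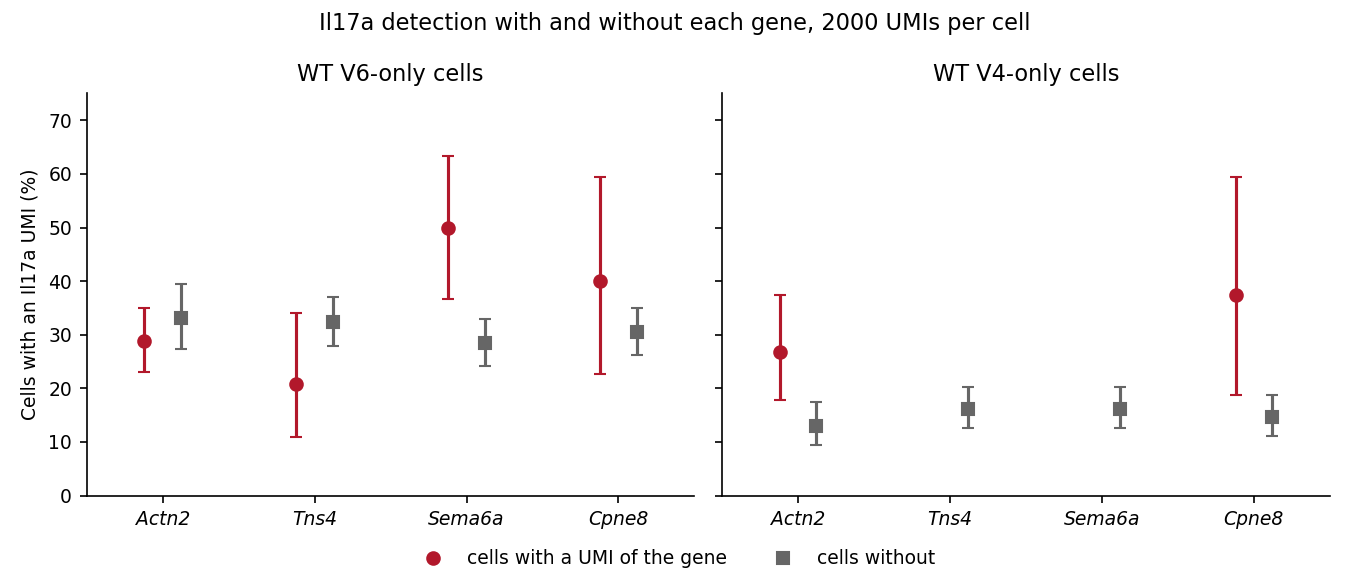
Percentage of cells with an Il17a UMI among cells with (red circles) and without (grey squares) a UMI of each gene, in WT Vγ6-only (V6-only) and Vγ4-only (V4-only) cells thinned to 2000 UMIs, with exact 95% Clopper-Pearson intervals. Red points are left out where fewer than 5 cells had the gene (Tns4 and Sema6a in Vγ4-only cells). In Vγ6-only cells the 2 shares stood apart for Sema6a (50% and 28.5%).

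The 4 transcripts were seldom detected together. At equal depth 187 of 483 Vγ6-only cells had a UMI of none of them, 227 of 1, 57 of 2, 12 of 3 and 0 of all 4. Tns4 and Sema6a, both of Vγ6 cells, were found together in 6 cells against 6.36 if detection were independent (without thinning 11 against 16.4). Sema6a and Cpne8 met in 8 cells against 3.60 (without thinning 15 against 10.1), and Actn2 with Tns4, Sema6a or Cpne8 in 27, 32 and 17 cells against 25.9, 28.3 and 14.7. Of the Cpne8-positive cells 26.7% (12.3 to 45.9) had Sema6a and of the others 11.0%, or 27.3% (16.1 to 41.0) and 17.2% without thinning, where the interval holds both values.

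The genes were also compared over 8 groups of cells that share none (Vγ6-only, Vγ4-only with and without panel UMIs, other WT T cells and 4 KO-labelled groups). The correlation of log2(CPM + 10) was 0.964 for Sema6a with Tns4 and 0.939 for Actn2 with Cpne8, and between 0.487 and 0.795 for the other pairings. The genes were chosen for low levels in the KO-labelled library. In its 4 groups Tns4, Sema6a and Cpne8 were at most at 1.39 CPM, under the 10 CPM added, so the values rest on the few WT groups. In single Vγ6-only cells Sema6a and Tns4 were not detected together beyond independence. Groups from the same library also share its preparation, so these values are a description. The genes most like Sema6a were Clnk, Magi1, Rnf43, Tdrd9 and Frmd5 (r between 0.987 and 0.999), and Clnk, an adaptor of immune receptor signalling, was at 103.5 CPM in Vγ6-only and 2.72 CPM in Vγ4-only panel cells.

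Among the genes most like Tns4 were Cdh10, Slc7a6os, Selenom and 4930503L19Rik (0.992 to 0.994), of which Cdh10, a cadherin gene, was at 42.4 and 6.80 CPM in the same groups. Actn2 was followed most closely by Rgs1, Abi3bp, Ddx3x, Chchd2 and Pik3ap1 (0.985 to 0.999), where Rgs1, a brake on G protein signalling, was at 895.4 CPM in Vγ6-only cells, 674.9 CPM in Vγ4-only panel cells and at most 165.1 CPM in a KO-labelled group. For Cpne8 the genes were Srrd, Errfi1, Fam129b, Ywhaz and Tpm4 (0.984 to 0.994), all higher in Vγ4-only panel cells than in Vγ6-only cells, as Cpne8 was.

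The families of the 4 genes were then read as whole lists, chosen with earlier results known. Of 74 other actinin, tensin, semaphorin, plexin and neuropilin, copine and focal adhesion genes, 30 had at least 30 UMIs in Vγ6-only and Vγ4-only cells together, and of these 1 was 4-fold higher (Nrp1) and 1 4-fold lower (Actn1), where 1.3% and 1.4% of all genes were, with a median log2 ratio of 0.36 against -0.01 for all genes. Against KO Vγ1 cells 35 were tested, 3 were 4-fold higher (Nrp1, Plxnd1 and Dlc1) and 2 lower (Actn1 and Nrp2), where 1.75% and 3.24% of all genes were, with a median of -0.14 against -0.10.

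Actn1 and Actn2 ran opposite to each other when all cells of each group were counted. Actn1, the non-muscle α-actinin of stress fibres and adhesions, was at 12.6 CPM in Vγ6-only cells, 88.4 CPM in Vγ4-only, 129.4 CPM in KO Vγ1 and 147.1 CPM in KO dv6 cells. Its log2 ratio of Vγ6-only over Vγ4-only cells was -2.81 (-3.48 to -2.19), against 1.53 for Actn2. Actn4, the other non-muscle form, lay between 96.0 and 130.7 CPM in all 4 groups, and Actn3 had at most 4 UMIs. With panel cells alone Actn1 had under 30 UMIs in both WT groups together and was not ranked. Most of its 140 UMIs in Vγ4-only cells thus came from cells without a panel UMI. The opposite order is therefore not shown for panel cells. Among the tensins Tns4 was the only one with more than 1 UMI in Vγ6-only cells. Tns1 had 0 UMIs there and 5, 36 and 26 UMIs in Vγ4-only, KO Vγ1 and KO dv6 cells, Tns3 had 1 UMI and Tns2 had 0.

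Of the other semaphorins, 5 of class 4 had at least 30 UMIs. Sema4a, Sema4b, Sema4c, Sema4d and Sema4f all had higher levels in Vγ6-only than in Vγ4-only cells, by log2 ratios between 0.56 and 1.36. None was past 4-fold, and the interval of Sema4a (-0.08 to 1.23) included no difference. Among panel cells alone the ratios of these 5 genes were smaller, between 0.19 and 1.02. Other class 6 members were near 0 in Vγ6-only cells, with 2 UMIs of Sema6c and 0 of Sema6b and Sema6d. Of the plexins that receive Sema6a, Plxna2 had 15 UMIs in Vγ6-only cells, 2 in Vγ4-only cells and 2 in KO Vγ1 cells, and Plxna4 had 0 in all 4 groups.

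Neuropilins, the co-receptors of secreted semaphorins, also ran in opposite directions when all cells of each group were counted. Nrp1 was at 43.4 CPM in Vγ6-only cells and 3.16 CPM in Vγ4-only, 6.80 CPM in KO Vγ1 and 4.69 CPM in KO dv6 cells. Nrp2 was at 2.53 CPM in Vγ6-only cells, 12.0 CPM in Vγ4-only cells and 17.9 CPM in KO Vγ1 cells. Among panel cells alone Nrp1 was still the 1 receptor gene past 4-fold, with a log2 ratio of 3.51, where 1.12% of all genes were 4-fold higher. Plxnd1, a plexin for class 3 and class 4 semaphorins, was at 39.4, 15.2, 3.99 and 2.41 CPM in the order Vγ6-only, Vγ4-only, KO Vγ1 and KO dv6.

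Of the 9 copines 3 had at least 30 UMIs in Vγ6-only and Vγ4-only cells together, Cpne1, Cpne3 and Cpne8. Of these 3, 0 differed 4-fold, where 1.3% of all genes were 4-fold higher and 1.4% lower. Cpne1 lay between 53.1 and 62.4 CPM in the 4 groups. Cpne3 was at 25.8 CPM in Vγ6-only, 46.7 CPM in Vγ4-only and 41.5 CPM in KO Vγ1 cells. The focal adhesion and actin linkers tie integrins to actin. They had 0 of 18 members past 4-fold between Vγ6-only and Vγ4-only cells, near the 1.3% and 1.4% of all genes. Their median log2 ratio was 0.12, against -0.01 for all genes. Against KO Vγ1 cells 1 of 20 was past 4-fold, where 1.75% of all genes were 4-fold higher and 3.24% lower. The median there was -0.21, against -0.10 for all genes. Talin (Tln1), the integrin activator, was at 283.3, 257.1, 295.4 and 294.1 CPM in the 4 groups. Flna, an actin cross-linker, was at 397.5, 298.8, 257.5 and 233.9 CPM in the same order, and the 1 past 4-fold, Dlc1, whose protein binds tensins, was at 9.09 CPM in Vγ6-only (18 UMIs), 6.32 CPM in Vγ4-only (10 UMIs) and 1.77 CPM in KO Vγ1 cells (24 UMIs).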

How the data were processed

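Single-cell RNA sequencing counts were deposited by the authors as 1 filtered matrix of UMI counts per library, made with Cell Ranger (7.0.0 in the file headers, 7.0 in the processing notes, an earlier release in the methods) on mm10. The labels name a 3′ kit and the methods a 5′ kit, with intron and strand settings not given in the sources used here. Cells with over 200 and under 4000 genes and under 10% mitochondrial UMIs were kept, after the study's filter, leaving 2505 of 2520 WT and 6634 of 6688 KO-labelled barcodes. No doublet caller was run. UMIs were summed per group. Intervals are exact at 95% (Poisson for CPM, Clopper-Pearson for shares, conditional for ratios). Cells were thinned to 2000 UMIs for shares, leaving out 380 WT and 828 KO-labelled cells. Groups at 0 were set to a floor of 3 UMIs for a bound. The written design applied the floor also to 1 or 2 UMIs, where the counting interval was used instead. Clusters came from scanpy 1.11.5 (2000 variable genes, 30 components, resolution 0.5), without the 4 genes, and Python 3.11.15 with scipy 1.17.1 was used. For 8133 genes, intervals of the Vγ6-only to Vγ4-only ratio were tried on simulated data, where 95.7% of the intervals held the true value. Whether they hold as often for the real UMIs, which are shared unevenly among cells, was not tested.

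The 4 genes and all lists were chosen with earlier results of these data known. Genes named beside them were list members past 4-fold or with most UMIs, the 5 genes most like each in r of log2(CPM + 10), the 5 with the highest Il17a co-detection ratio, and receptor and marker genes; 1 gene of the Tns4 list is not reported here. Promoter sequences are shown for Actn2 and Cpne8, and none for Tns4 and Sema6a.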

Additional observations from a re-analysis of the deposited data

Results flagged for a closer look

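Cpne8 had 7 UMIs in 4 of the 93 WT cells in the myeloid-like and B-like clusters (4.30%, exact 95% interval 1.18 to 10.6). Among the cells of these clusters were 10 Vγ4-only and 2 Vγ6-only cells, so they are not wholly outside the receptor groups. The Cpne8 share was flagged for lying above 3.23%, the limit that a count of 0 in 93 cells allows. Its interval included that limit, and Tns4 was also at 3.23% in these cells, so this does not set Cpne8 apart. In the KO-labelled library the same clusters had 5 UMIs in 3 of 59 cells, all in the myeloid-like cluster, where the level was 28.0 CPM (9.09 to 65.3).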

How the results depend on the processing

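Of 132 recomputed level ratios 104 were counted as unmoved, 25 as moved and 3 changed sign, all 3 of them Cpne8 between Vγ6-only and Vγ4-only cells. A ratio with a counting interval counted as moved where it left that interval. Sema6a over Vγ4-only cells is a bound without an interval, so its shifts are shifts of a bound. No paired analysis was possible because there is 1 library a group. The cause of these shifts was not tested. Values are log2 ratios unless given in percent.

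With panel cells alone, Vγ6-only over Vγ4-only was 0.63 for Actn2 and -0.70 for Cpne8. Over KO Vγ1 it was 4.11 for Actn2, 4.37 for Tns4 and 3.69 for Cpne8, and over KO dv6 4.41, 4.68 and 3.27, with 5.93 for Sema6a. With Il17a-positive cells alone, a choice made after seeing the data, Vγ6-only over Vγ4-only was 0.57 for Actn2, at least 1.83 for Tns4, at least 3.21 for Sema6a and -0.90 for Cpne8. Over KO Vγ1 it was 4.04, 3.38, at least 4.17 and 3.46, and over KO dv6 3.49, at least 1.72, at least 3.097 and 3.39. With at least 2 UMIs of the receptor gene, Sema6a was at least 3.48 and Cpne8 -0.38 over Vγ4-only cells, and Actn2 5.61 over KO dv6. Actn2 over Vγ4-only cells was 1.31 as a mean over cells, 2.17 in Xist cells and 1.30 in Y-linked cells, where Sema6a was at least 3.42. Judging by 3 Tcrg genes or leaving out cluster 8, both also chosen after seeing the data, kept every ratio that has an interval within it. The Sema6a bound over Vγ4-only cells was then at least 5.455 and at least 5.27.

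Shares of positive cells follow depth. Without thinning they were 65.2%, 30.5%, 5.52% and 4.40% for Actn2 in Vγ6-only, Vγ4-only, KO Vγ1 and KO dv6 cells, 17.3% for Tns4 in Vγ6-only, 0.312% in KO Vγ1 and 0.334% in KO dv6 cells, and 18.3% for Sema6a and 10.6% for Cpne8 in Vγ6-only cells. At 1000 UMIs Actn2 was at 29.0%, 15.2% and 1.29% in the first 3 groups, Tns4 at 5.25% in Vγ6-only and 0% in Vγ4-only cells, Sema6a at 8.37% in Vγ6-only and 0% in KO dv6 cells, and Cpne8 at 3.31%, 2.20% and 0.0675% in Vγ6-only, Vγ4-only and KO dv6 cells. Another thinning seed gave 0% for Sema6a and 0.0711% for Cpne8 in KO dv6 cells.

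The Il17a share of Actn2-positive Vγ6-only cells was 40.4% without thinning and 22.8% at 1000 UMIs, above the other cells both times, where that of Sema6a was 32.6% and that of Cpne8 11.8%, below the other cells. The genes 4-fold higher and lower in Vγ6-only than Vγ4-only cells numbered 48 and 49 with at least 100 UMIs and 233 and 395 with at least 1, against 105 and 113.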

Other observations

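The 990 KO-labelled cells with a Tcrg-V4 UMI had Actn2 at 16.0 CPM (12.6 to 19.9) and the 5644 without at 10.7 CPM (9.35 to 12.2), a ratio of 1.49 (1.14 to 1.94). Tns4 had 6 UMIs on either side, a ratio of 4.31 (1.15 to 16.1). Cpne8 had 3 and 20 UMIs (0.646, 0.123 to 2.18), and Sema6a 0 and 6. Cells with Tcrg-V4 were also deeper, with a median of 4383 UMIs against 3408. In the WT library the 71 cells with both Tcrg-V6 and Tcrg-V4 UMIs, left out of both WT groups, had 355.4 CPM of Actn2 (295.9 to 423.5), 34.1 CPM of Tns4 and 45.5 CPM of Sema6a (26.0 to 73.9).

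Il17f, the gene of the related cytokine IL-17F, was at 30.8 CPM in Vγ6-only and 103.6 CPM in Vγ4-only cells, the reverse of Il17a (397.0 and 183.2 CPM). At equal depth 24.4% of Actn2-positive Vγ4-only cells had an Il17f UMI (15.8 to 34.9) and 9.70% of the others (6.59 to 13.6). In Vγ6-only cells the shares were 4.24% and 4.05% for Actn2, and Sema6a-positive cells had Il17f in 2 of 58.

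Vγ6-only cells from males, by Y-linked and no Xist transcripts, had Tns4 at 80.9 CPM (58.6 to 109.0) and those with Xist alone at 40.7 CPM (27.3 to 58.5), a ratio of 1.99 (1.21 to 3.30). Il17a went the other way, at 288.0 and 539.1 CPM (0.534, 0.440 to 0.646). Actn2 was at 408.5 and 390.3 CPM. The number of animals of either sex is not given, so sex and animal cannot be told apart.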
